A study of Mus musculus with 62 samples.

Results

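The interferon response and MHC class I genes described here are 35 genes, chosen by symbol, of the 47643 genes in the deposited table of transcript abundances. They were followed across 62 libraries in 12 groups, all from soleus, a calf muscle in which slow fibres abound. Female mice, 2 months old per the labels, had been given melanoma cells described as cachectic (CAC), melanoma cells described as non-cachectic (NCAC) or a mock injection (Con), and the muscle was taken 2, 4, 6 or 8 weeks later. Cachexia is the wasting of muscle and fat that some tumours bring on. Each group held 5 libraries, except CAC at 8 weeks with 7, and within a group they are described as biological replicates. No transgene or deletion is given for any group. The labels disagree on the host: the sample entries name C57BL6/J mice, the design text gives NCI Ath/nude, and LLC, a lung carcinoma line, appears in the protocols. The protocols also speak of RNA taken at 3 weeks, a time that no sample entry gives. Nude mice lack a thymus and have few mature T cells but keep NK cells and macrophages, so the labels leave the lymphocytes of the hosts unsettled. The melanoma lines are not named. Values are TPM, transcript abundances scaled for transcript length and to the same total in every library, so levels can be compared between genes, while the sequencing depth behind each value is unknown.

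Interferons are cytokines that cells release on sensing viral nucleic acid or, for interferon gamma, that activated lymphocytes release. Their receptors signal through JAK kinases to STAT proteins. A complex that contains STAT2 and IRF9 binds the interferon-stimulated response element (ISRE), and interferon gamma acts through the gamma-activated site (GAS). The induced genes include antiviral effectors, GTPases that attack intracellular pathogens, and the machinery with which MHC class I molecules display peptides to T cells. Resting muscle fibres are known for low MHC class I, which increases in inflamed muscle. The 35 genes comprise 7 regulators, 5 MHC class I genes, 16 antiviral effectors and 7 GTPases.

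Promoter sequences show which members carry the letters of these elements directly upstream. RefSeq promoters of GRCm38.p6, the assembly also called mm10, were matched for 27 of the 35 members, and the 250 bases before each transcript start were searched on both strands. The ISRE was searched as GAAA, NN and GAAA in a row, where N is any base, and the GAS as TTC, NNN and GAA in a row. The ISRE letters stood in 14 of the 27 members (51.9%), against 3.46% of 27025 genes, and the GAS letters in 6 (22.2%), against 8.13%. By role, the ISRE letters were found in 5 of 5 matched GTPases, 7 of 13 antiviral effectors, 1 of 4 MHC class I genes and 1 of 5 regulators. Of the 27 members 4 held both motifs and 11 held neither. A match describes letters only and does not show that a factor binds there. Only exact letters were counted, so a gene without a match may still hold an element that departs from them. The windows of 6 members on which the results turn are printed 5′ to 3′ on the strand of the gene, in lower case with the motif letters in capitals. Ifitm2 (chr7:140955962-140956211, minus strand) has an ISRE match 36 bases before its start, and Ifitm3 (chr7:141010745-141010994, minus strand) has no match.
Ifitm2: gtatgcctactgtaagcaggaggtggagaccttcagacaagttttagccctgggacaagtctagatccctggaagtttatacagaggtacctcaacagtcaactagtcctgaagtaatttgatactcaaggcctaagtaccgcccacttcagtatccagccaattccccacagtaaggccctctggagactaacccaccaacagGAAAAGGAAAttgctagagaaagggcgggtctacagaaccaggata
Ifitm3: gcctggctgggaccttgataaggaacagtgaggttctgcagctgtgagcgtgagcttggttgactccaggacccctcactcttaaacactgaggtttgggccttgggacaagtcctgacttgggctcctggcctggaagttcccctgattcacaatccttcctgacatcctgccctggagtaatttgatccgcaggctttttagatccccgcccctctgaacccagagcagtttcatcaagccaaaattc
Stat2 (chr10:128270248-128270497, plus strand) has an ISRE match 212 bases before its start, and Ifit3 (chr19:34583279-34583528, plus strand) has matches at 146 and 112 bases.
Stat2: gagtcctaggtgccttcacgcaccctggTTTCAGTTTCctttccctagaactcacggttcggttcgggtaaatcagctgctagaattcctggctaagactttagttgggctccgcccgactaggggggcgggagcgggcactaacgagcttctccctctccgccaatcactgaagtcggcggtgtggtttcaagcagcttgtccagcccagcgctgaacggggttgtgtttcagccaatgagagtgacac
Ifit3: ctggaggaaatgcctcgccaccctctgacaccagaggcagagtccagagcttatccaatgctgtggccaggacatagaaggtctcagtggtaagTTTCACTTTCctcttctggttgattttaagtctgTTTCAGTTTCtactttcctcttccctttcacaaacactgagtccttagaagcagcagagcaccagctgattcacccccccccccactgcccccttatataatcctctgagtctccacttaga
Gbp3 (chr3:142559794-142560043, plus strand, the more upstream of its listed starts) has overlapping ISRE matches at 35 and 29 bases. Igtp (chr11:58199306-58199555, plus strand) has a GAS match at 36 bases and an ISRE match at 24 bases.
Gbp3: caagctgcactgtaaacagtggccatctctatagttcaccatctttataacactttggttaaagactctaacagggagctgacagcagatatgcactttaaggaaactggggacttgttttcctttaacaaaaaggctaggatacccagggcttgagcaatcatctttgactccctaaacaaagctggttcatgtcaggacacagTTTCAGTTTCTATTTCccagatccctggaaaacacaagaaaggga
Igtp: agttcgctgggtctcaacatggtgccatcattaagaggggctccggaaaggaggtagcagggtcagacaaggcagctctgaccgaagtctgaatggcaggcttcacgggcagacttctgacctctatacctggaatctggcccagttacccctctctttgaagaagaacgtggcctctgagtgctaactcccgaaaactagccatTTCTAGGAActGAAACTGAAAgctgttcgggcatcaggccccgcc

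Levels differed widely between members. In Con at 6 weeks B2m, the light chain of MHC class I molecules, averaged 263 ± 35.4 TPM (SD, n = 5). Ifitm2 averaged 147 ± 12.3 TPM and Ifitm3 95.5 ± 6.17 TPM (SD, n = 5 each). These encode membrane proteins that block virus entry. The class I heavy chain genes H2-D1 and H2-K1 averaged 75.4 ± 30.8 and 54.4 ± 8.76 TPM (SD, n = 5 each), which did not differ beyond their spread. At the low end were Ubd, a ubiquitin-like modifier, at 0.359 ± 0.579 TPM and Irf8, a transcription factor of myeloid cells, at 0.497 ± 0.0735 TPM (SD, n = 5 each). All 35 members passed the filter of at least 1 TPM in at least 5 libraries, but Irf8, Ifi44 and Ubd passed only through the 8-week libraries. The genes that differed most clearly lie, in the mm10 coordinates of GENCODE M21, at chr7:140954837-140955987 for Ifitm2 and chr7:141009586-141010770 for Ifitm3 on the minus strand, chr10:128270559-128292849 for Stat2, chr19:34583531-34588731 for Ifit3 and chr3:142560026-142573209 for Gbp3 on the plus strand, and each TPM is a value of a whole gene. Near-identical copies can share reads, so the split among the class I heavy chains, the Ifitm genes, the Ifit genes, the Oas genes and the Gbp cluster is uncertain, and class I alleles also depend on the unsettled strain.

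**Figure D1:**
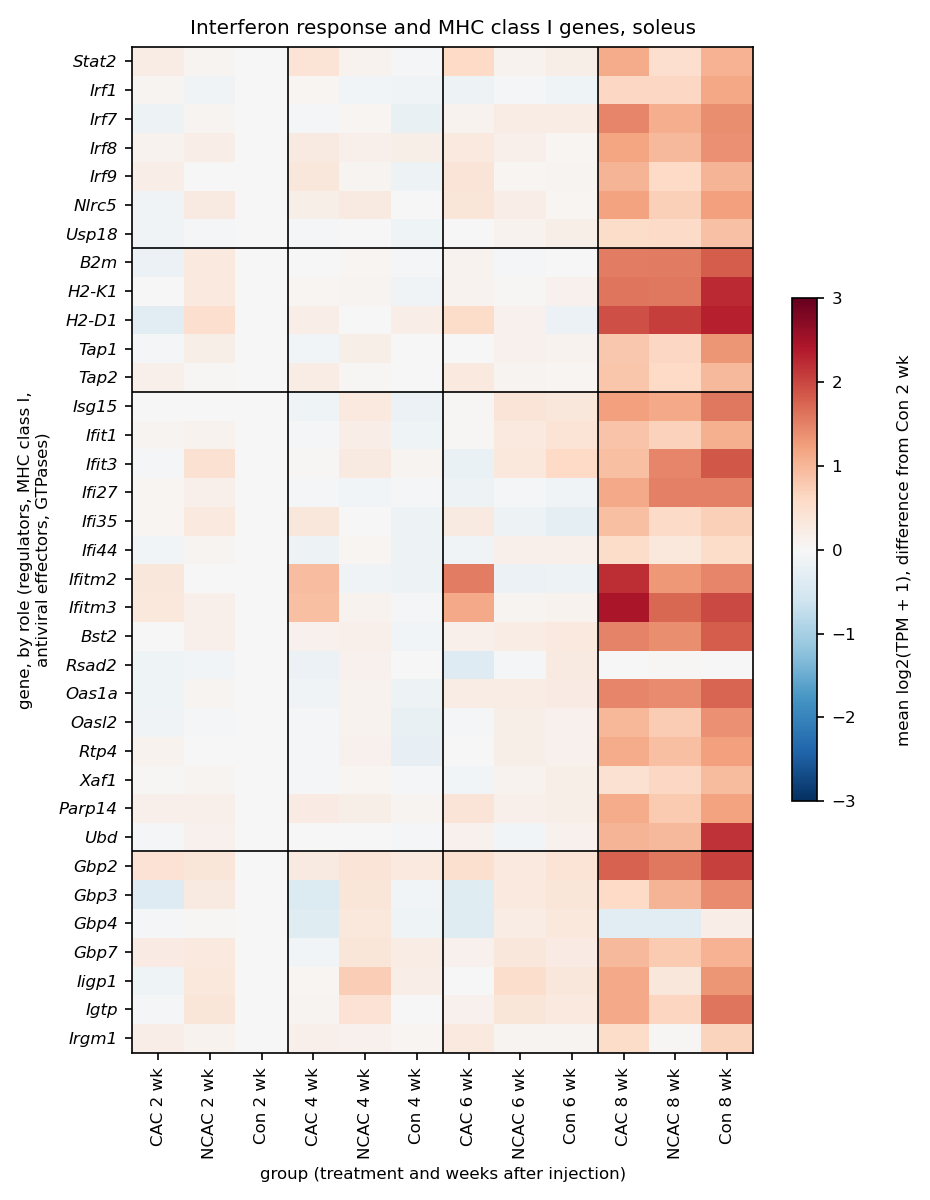
Mean log2(TPM + 1) of the 35 genes in the 12 groups, as the difference from Con at 2 weeks (colour in log2 units; genes by role, groups by week with CAC left of NCAC and Con). Most genes are higher in the 3 groups of week 8, and Ifitm2 and Ifitm3 are higher in CAC than in NCAC and Con at 4 and 6 weeks.

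Some libraries stood apart. The 5 muscle fibre markers summed to between 49160.3 and 69334 TPM at weeks 2 to 6 and between 19778 and 51662 TPM at week 8, so muscle RNA was abundant throughout. The 12 macrophage markers summed to between 64.7 and 375 TPM at weeks 2 to 6 and between 416 and 3143 TPM at week 8. In bulk tissue, fewer cells of a type and less RNA per cell cannot be told apart. At least 500 TPM of the fast fibre myosin Myh4 was present in CAC replicate 4 of week 2, CAC replicate 6 of week 8 and NCAC replicate 3 of week 6, against at most 159 TPM in the other 59 libraries. CAC replicate 3 and Con replicate 1 of week 8 stood apart in the interferon genes themselves, so 8-week results are given with and without them.

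At 2 weeks limma called 0 of the 35 members in CAC against Con at an adjusted p under 0.05, as it called 0% of the 13529 genes tested, and 4 members were under 0.05 before adjustment. Ifitm2 read 169, 191, 273, 195 and 214 TPM in CAC, against 162, 171, 147, 166 and 170.5 TPM in Con, with CAC replicate 1 inside the Con range. The log2 fold change of TPM + 1 was 0.33 (SE 0.10, limma adjusted p = 0.373).

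At 4 weeks Ifitm2 and Ifitm3 rose in CAC against Con and no member fell, where 0.902% of all genes rose and 0.133% fell, 1.03% in all. Ifitm2 read 231, 512, 261, 457 and 204 TPM in CAC, against 128, 142, 159, 140.2 and 161 TPM in Con. Ifitm3 read 148, 206, 132, 221 and 149 TPM in CAC, against 90.9, 101, 93.6, 86.4 and 69.5 TPM in Con. Every CAC library lay above every Con library in both genes, and CAC replicates 2 and 4 were highest. The log2 fold change was 1.09 for Ifitm2 (SE 0.21, limma adjusted p = 0.0249) and 0.93 for Ifitm3 (SE 0.13, limma adjusted p = 0.00463). The Ifitm2 call was lost without CAC replicate 4 (0.95, limma adjusted p = 0.0627) and without Con replicate 1, 2, 4 or 5 (1.04, 1.08, 1.07 and 1.12, limma adjusted p = 0.0701, 0.0573, 0.0725 and 0.0566). Without CAC replicate 3, 4 members rose, Stat2 and Irf9 beside Ifitm2 and Ifitm3. The summed macrophage markers were 211, 375, 195, 341 and 130.4 TPM in CAC, against 134, 175, 213, 144 and 139 TPM in Con. CAC replicates 2 and 4 were also the highest of these sums, and the part of macrophages in the difference was not tested.

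At 6 weeks CAC differed from Con in both directions. Ifitm2, Ifitm3, Stat2 and Irf9 rose, 4 of 35 members, where 23.5% of all genes rose. Ifit3, Rsad2, Gbp3 and Gbp4 fell, 4 of 35 members, where 3.87% of all genes fell, so 8 of 35 members against 27.4% of all genes. The median log2 fold change was -0.04 over the members and 0.16 over all genes. Median-of-ratios rescaling, which sets the typical gene equal between libraries, shifted the median of all genes by 0.149. Relative to it 3 members rose and 8 fell, among 1528 genes that rose and 1510 that fell. There Irf9 no longer passed, while Isg15, Bst2, Xaf1 and Ifit1 fell as well.

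**Figure D2:**
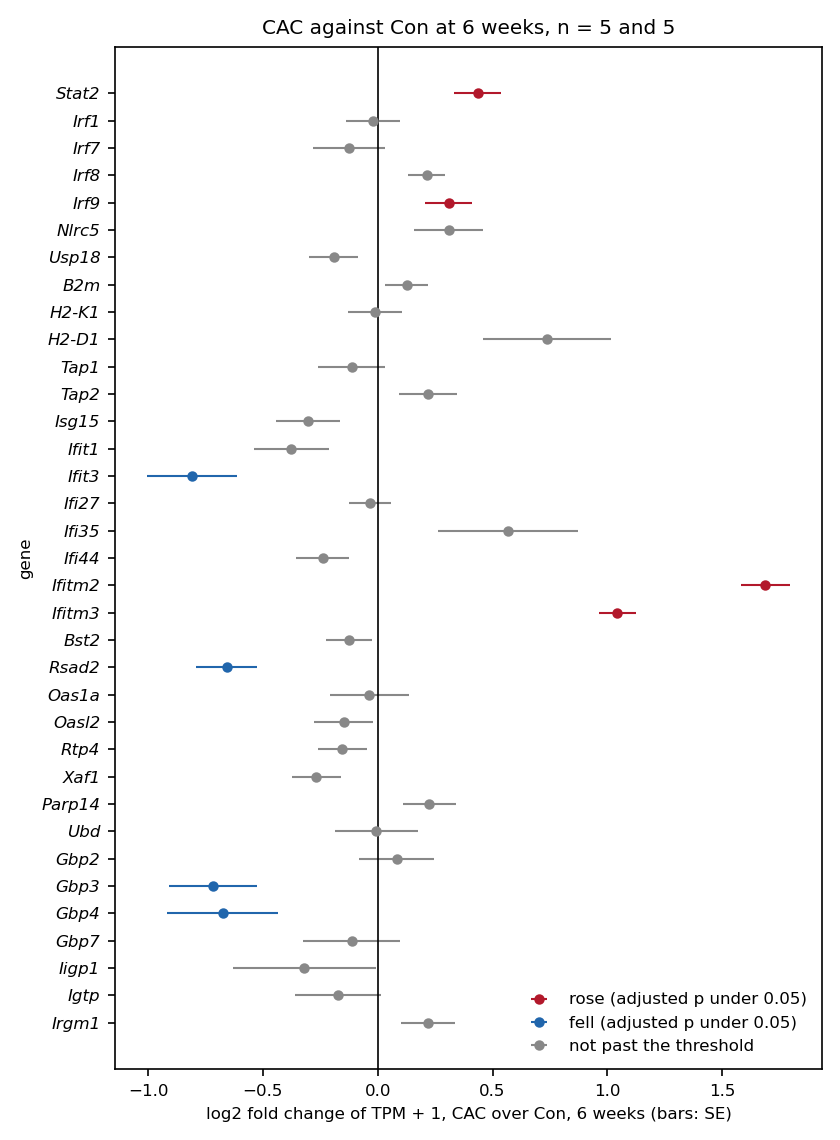
Log2 fold change of TPM + 1 in CAC over Con at 6 weeks for the 35 genes, with bars of 1 standard error and colour for the limma call at an adjusted p of 0.05 (n = 5 and 5). Ifitm2 at 1.69 and Ifitm3 at 1.04 lie farthest right, and Ifit3, Gbp3, Gbp4 and Rsad2 lie left between -0.81 and -0.66.

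The virus entry inhibitors separated most clearly at 6 weeks. Ifitm2 read 542, 419, 477, 557 and 398 TPM in CAC, against 142, 139, 146, 168 and 139 TPM in Con. Ifitm3 read 215, 196, 199, 216 and 166 TPM in CAC, against 87.7, 105, 94.7, 94.6 and 95.4 TPM in Con. The groups did not overlap in either gene. Ifitm2 rose by 1.69 on the log2 scale (SE 0.11, limma adjusted p = 3.8e-08) and Ifitm3 by 1.04 (SE 0.08, limma adjusted p = 3.13e-07), and both calls held under each alternative run.

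Among the regulators, Stat2 and Irf9, partners in the ISRE-binding complex, rose slightly. Stat2 read 7.51, 8.48, 6.16, 8.7 and 6.51 TPM in CAC, against 5.06, 5.77, 5.47, 4.67 and 5.18 TPM in Con, without overlap (log2 fold change 0.44, SE 0.10, limma adjusted p = 0.00673). Irf9 read 5.21, 4.88, 5.34, 6.95 and 4.54 TPM in CAC, against 4.1, 4.27, 4.46, 3.73 and 4.03 TPM in Con, also without overlap (log2 fold change 0.31, SE 0.10, limma adjusted p = 0.035). The Irf9 call was lost under rescaling (0.15, limma adjusted p = 0.239). It was also lost without CAC replicate 1 or 4 (0.32 and 0.23, limma adjusted p = 0.0661 and 0.0915) and without Con replicate 1, 2, 4 or 5 (0.31, 0.32, 0.28 and 0.30, limma adjusted p = 0.0561, 0.0589, 0.0802 and 0.0615). Irf8 read 0.901, 0.689, 0.639, 0.805 and 0.65 TPM in CAC, against 0.473, 0.518, 0.493, 0.4 and 0.603 TPM in Con. It missed the threshold although the groups did not overlap (log2 fold change 0.21, SE 0.08, limma adjusted p = 0.0597). The regulators Irf1 and Irf7, the class I activator Nlrc5 and Usp18, a brake on interferon signalling, did not pass, with log2 fold changes from -0.19 to 0.31.

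No MHC class I gene passed at 6 weeks: limma called 0 of 5, and 1 was under 0.05 before adjustment. B2m read 297, 300.3, 290.4, 285 and 256 TPM in CAC, against 310.0, 279.9, 224, 233 and 269.7 TPM in Con, and the groups overlapped (log2 fold change 0.13, SE 0.09, limma adjusted p = 0.318). H2-D1 read 122, 129, 87.6, 132 and 108 TPM in CAC, against 104, 87.5, 66.2, 26.1 and 93.5 TPM in Con, with Con replicate 4 lowest (log2 fold change 0.74, SE 0.28, limma adjusted p = 0.0575). Tap2, a subunit of the transporter that feeds peptides to class I molecules, read 12.5, 10.1, 8.5, 15.2 and 9.18 TPM in CAC, against 9.42, 9.11, 9.26, 8.36 and 9.88 TPM in Con. CAC replicates 3 and 5 of Tap2 lay inside the Con range, and CAC replicate 4 was highest. H2-K1 and Tap1, the partner of Tap2, had log2 fold changes of -0.01 and -0.11.

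The members that fell at 6 weeks stood at low levels. Ifit3, part of a complex that binds viral RNA, read 2.87, 4.42, 3.92, 4.45 and 2.66 TPM in CAC, against 7.11, 10.8, 5.43, 6.56 and 6.32 TPM in Con, without overlap (log2 fold change -0.81, SE 0.20, limma adjusted p = 0.00798). Rsad2, which encodes the antiviral enzyme viperin, read 0.663, 0.786, 0.427, 0.87 and 0.763 TPM in CAC, against 2.24, 2.21, 0.827, 1.92 and 1.47 TPM in Con. Con replicate 3 lay inside the CAC range and the other Con libraries above it (log2 fold change -0.66, SE 0.13, limma adjusted p = 0.00297). Gbp3, a guanylate-binding protein, read 2.05, 3.46, 1.83, 3.22 and 2.28 TPM in CAC, against 6.48, 5.82, 3.06, 4.33 and 4.82 TPM in Con. Again only Con replicate 3 reached into the CAC range (log2 fold change -0.72, SE 0.19, limma adjusted p = 0.0131).

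Gbp4, of the same family as Gbp3, was close to the threshold. It read 2.24, 3.82, 3.23, 3.56 and 2.8 TPM in CAC, against 12.5, 4.67, 4.54, 5.28 and 3.44 TPM in Con, with Con replicate 1 far above the others and Con replicate 5 inside the CAC range (log2 fold change -0.68, SE 0.24, limma adjusted p = 0.0481). Without Con replicate 1 the log2 fold change was -0.41 (limma adjusted p = 0.0894). Without CAC replicate 1, 2, 3, 4 or 5 or Con replicate 2, 3 or 4 in turn, it ran from -0.59 to -0.73 (limma adjusted p from 0.0564 to 0.127), so that the call was lost each time. Irgm1, a GTPase that acts in autophagy of pathogens, read 10.1, 10.2, 8.72, 10.8 and 7.36 TPM in CAC, against 9.12, 7.71, 7.88, 7.4 and 7.52 TPM in Con, with overlap (log2 fold change 0.22, SE 0.12, limma adjusted p = 0.168). Gbp2, Gbp7, Iigp1 and Igtp had log2 fold changes from -0.32 to 0.08, and none passed.

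Markers of other cell types also differed between these groups, where 23.5% of all genes rose and 3.87% fell. The macrophage markers summed to 259, 281, 223, 238 and 235 TPM in CAC, against 142, 159, 150.3, 132 and 160.5 TPM in Con, without overlap, and 7 of 12 rose. The 5 neutrophil markers summed to 12.6 to 27.9 TPM in CAC, against 4.64 to 12.6 TPM in Con, and the 3 that could be tested rose. The 5 adipocyte markers summed to 921, 763, 848, 1515 and 768 TPM in CAC, against 339, 380.5, 296, 369.6 and 348 TPM in Con, without overlap, and 3 of 5 rose (median log2 fold change 1.07). The 8 endothelial markers summed to 192 to 249.6 TPM in CAC, against 169 to 200.2 TPM in Con, and 4 rose and 1 fell. Of the other markers 1 of 6 for fibro-adipogenic progenitors and 2 of 5 for muscle fibres rose. Of muscle fibre markers 1 fell, as did 1 of 3 tested dendritic cell markers, and 0 of 6 slow fibre markers were called. The 10 T and NK lymphocyte markers summed to 0.262 to 0.835 TPM in CAC, against 0.267 to 1.75 TPM in Con. Cd3g was listed at 0 in all 5 CAC libraries, as it was in all CAC and NCAC libraries of 2 weeks. The part of these cells in the members' differences was not tested.

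**Figure D3:**
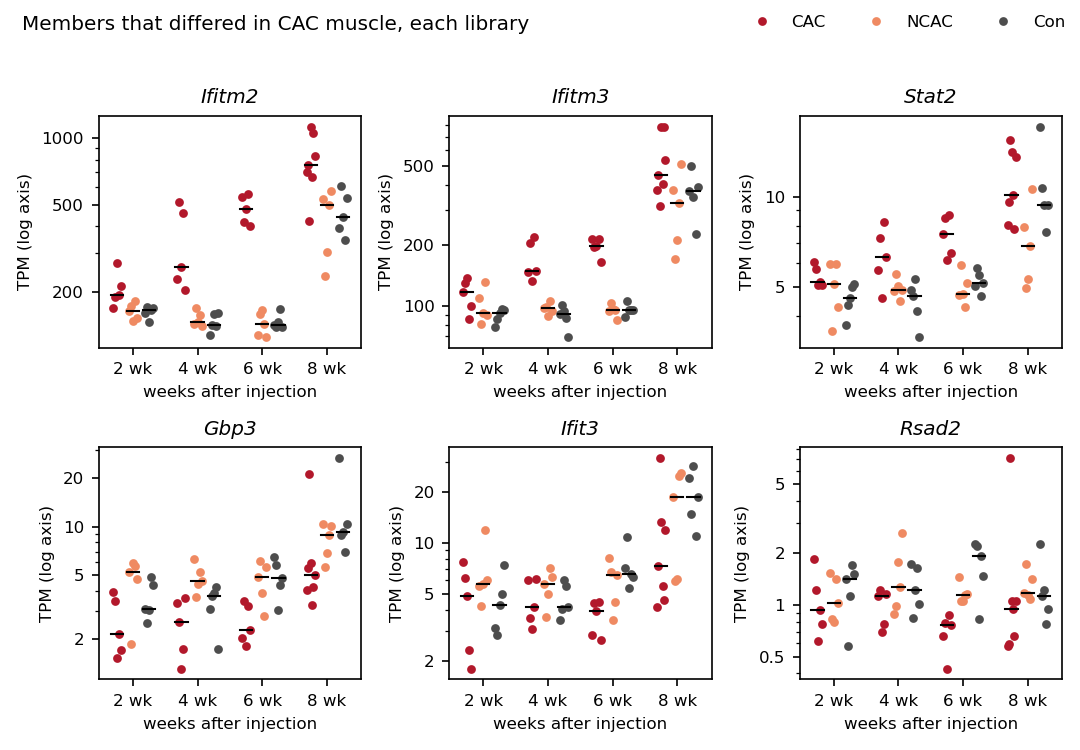
TPM on a log axis in each of the 62 libraries for Ifitm2, Ifitm3, Stat2, Gbp3, Ifit3 and Rsad2, by week with CAC left of NCAC and Con, with lines at the group medians. At 6 weeks the 5 CAC libraries of Ifitm2 lie between 398 and 557 TPM, above each NCAC and Con library of that week.

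CAC was also set against NCAC, the melanoma cells described as non-cachectic. At 2 weeks limma called 0 of 35 members, where 0.503% of all genes were called (0.399% higher and 0.103% lower), and 5 members were under 0.05 before adjustment. Without NCAC replicate 2, 5 members fell, namely Gbp3, Nlrc5, Igtp, H2-D1 and Iigp1. At 4 weeks Ifitm2 and Ifitm3 rose, where 5.11% of all genes rose, and Gbp3 and Gbp4 fell, where 0.732% fell, so 4 of 35 members against 5.84% of all genes. In NCAC, Ifitm2 read 143, 171, 147, 158 and 141 TPM and Ifitm3 read 97.5, 98.8, 88.9, 105 and 93.4 TPM, below every CAC library of that week. The log2 fold change was 1.03 for Ifitm2 (SE 0.21, limma adjusted p = 0.0204) and 0.79 for Ifitm3 (SE 0.13, limma adjusted p = 0.00958). The Ifitm2 call was lost without CAC replicate 4 (0.89, limma adjusted p = 0.0541) or NCAC replicate 1 (1.01, limma adjusted p = 0.0542).

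The fall of the guanylate-binding proteins against NCAC at 4 weeks was near the threshold. Gbp3 read 3.38, 2.57, 1.32, 1.74 and 3.62 TPM in CAC, against 6.3, 3.64, 4.4, 5.26 and 4.62 TPM in NCAC (log2 fold change -0.76, SE 0.21, limma adjusted p = 0.0464). Gbp4 read 3.59, 2.49, 2.29, 2.96 and 4.3 TPM in CAC, against 7, 4.38, 5.14, 5.37 and 5.89 TPM in NCAC (log2 fold change -0.68, SE 0.17, limma adjusted p = 0.0405). The groups did not overlap in either gene. Without CAC replicate 2, 3 or 4 or NCAC replicate 1, 2, 3, 4 or 5 in turn, both calls were lost. The values then ran from -0.62 to -0.84 for Gbp3 (limma adjusted p from 0.063 to 0.112) and from -0.60 to -0.75 for Gbp4 (limma adjusted p from 0.0598 to 0.0959). Against Con at 4 weeks Gbp3 and Gbp4 had log2 fold changes of -0.31 and -0.23, and neither passed. Of the cell type markers 2 of 8 endothelial and 1 of 5 muscle fibre markers rose against NCAC at 4 weeks, where 5.11% of all genes rose. The part of these cells was not tested.

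At 6 weeks 4 members rose against NCAC, where 27.8% of all genes rose, and 2 fell, where 4.86% fell, so 6 of 35 members against 32.6% of all genes. In NCAC, Ifitm2 read 129, 159, 166, 144 and 125 TPM and Ifitm3 read 93.6, 103, 95.9, 95.1 and 84.3 TPM, below every CAC library. The log2 fold change was 1.72 for Ifitm2 (SE 0.11, limma adjusted p = 2.19e-08) and 1.06 for Ifitm3 (SE 0.08, limma adjusted p = 2.6e-07). Stat2 read 4.72, 5.93, 4.73, 4.29 and 5.15 TPM in NCAC, also below every CAC library (log2 fold change 0.50, SE 0.10, limma adjusted p = 0.00211). Irf9 read 4.06, 4.8, 3.42, 3.68 and 4.23 TPM in NCAC and overlapped with CAC (log2 fold change 0.34, SE 0.10, limma adjusted p = 0.0201). The Irf9 call was lost without CAC replicate 4 (0.25, limma adjusted p = 0.054) and under rescaling (0.18, limma adjusted p = 0.164).

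Gbp3 and Ifit3 fell against NCAC at 6 weeks. Gbp3 read 4.87, 6.16, 3.89, 2.81 and 5.62 TPM in NCAC, with NCAC replicate 4 inside the CAC range (log2 fold change -0.66, SE 0.19, limma adjusted p = 0.0167). Ifit3 read 8.12, 6.72, 3.51, 4.45 and 6.44 TPM in NCAC and overlapped with CAC (log2 fold change -0.53, SE 0.20, limma adjusted p = 0.0474). The Ifit3 call was lost without CAC replicate 1, 3, 4 or 5 or NCAC replicate 1, 2 or 5 in turn, with values from -0.41 to -0.59 (limma adjusted p from 0.0524 to 0.121). Rescaling shifted the median of all genes by 0.151. Relative to it 3 members rose and 8 fell, among 1988 genes that rose and 1829 that fell. Gbp4, Isg15, Xaf1, Rsad2, Ifi27 and Rtp4 then fell beside Gbp3 and Ifit3, and Irf9 no longer passed. The macrophage markers summed to 150.1, 197, 114, 207 and 64.7 TPM in NCAC, below every CAC library, and 8 of 12 rose in CAC. The adipocyte markers summed to 161, 553, 217, 359 and 238 TPM in NCAC, also below every CAC library, and 3 of 5 rose. Of the other lists 5 of 8 endothelial markers rose and 1 fell, and 3 of 3 tested neutrophil and 2 of 6 fibro-adipogenic progenitor markers rose. Of muscle fibre markers 1 of 5 rose and 1 fell, 1 of 3 tested dendritic cell markers fell and 0 of 6 slow fibre markers were called. Among all genes 27.8% rose and 4.86% fell. The part of these cells in the differences was not tested.

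In NCAC against Con, limma called 0 members at each of the 4 time points. The members under 0.05 before adjustment numbered 1, 3, 1 and 3 at 2, 4, 6 and 8 weeks. Of all genes 0.00739%, 0.00739%, 0% and 0% were called at those times. With 1 fit of all 12 groups limma called 1 member at 8 weeks. A p that misses the threshold does not show that the groups were alike.

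The growth of the CAC effect with time was tested as a difference of log2 fold changes against Con. From 2 to 6 weeks the effect on Ifitm2 was larger by 1.35 (SE 0.16, limma adjusted p = 0.000105) and that on Ifitm3 by 0.72 (SE 0.15, limma adjusted p = 0.0125), where 1.94% of all genes were called higher. The Ifitm3 call was lost in 1 fit of all 12 groups (limma adjusted p = 0.38). No member was called lower, where 0.562% of all genes were, and 2.5% of all genes were called either way. The log2 fold change of Ifitm2 was 0.33, 1.09 and 1.69 at 2, 4 and 6 weeks, and that of Ifitm3 was 0.33, 0.93 and 1.04. From 6 to 8 weeks limma called 0 members, where 0.192% of all genes were called (0.0148% higher and 0.177% lower), and 4 members were under 0.05 before adjustment.

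Other genes of interferon production, signalling and antigen presentation formed a list of 65, of which 64 were in the table and 56 were tested. Ifnb1, the interferon beta gene, was listed at 0 in each library, and Ifng, the interferon gamma gene, reached at most 0.127 TPM at weeks 2 to 6. At week 8 Ifng read 0.721 TPM in Con replicate 1 and at most 0.122 TPM in the other 16 libraries. In CAC against Con limma called 0 of the 56 at 2 weeks and 0 at 4 weeks, with 4 and 10 under 0.05 before adjustment. At 6 weeks 15 rose (26.8%, against 23.5% of all genes) and 3 fell (5.36%, against 3.87%), which is near the background of all genes. Ifitm1, a further virus entry inhibitor, read 12.8, 7.99, 10.2, 7.97 and 5.59 TPM in CAC, against 1.29, 4.32, 2.17, 2.58 and 1.69 TPM in Con, without overlap (log2 fold change 1.56, SE 0.21, limma adjusted p = 9.27e-05). Tmem173, which encodes the DNA-sensing adaptor STING, read 10.3, 10.2, 10.7, 10.9 and 6.6 TPM in CAC, against 3.33, 2.73, 2.72, 3.09 and 3.99 TPM in Con, without overlap (log2 fold change 1.35, SE 0.14, limma adjusted p = 5.18e-06). Ifngr1, an interferon gamma receptor chain, rose (log2 fold change 0.47, SE 0.10, limma adjusted p = 0.00384), as did Trim25, a ubiquitin ligase of the RIG-I pathway (log2 fold change 0.49, SE 0.09, limma adjusted p = 0.00174). The genes that fell, named after their values were seen, were the other receptor chain Ifngr2 (log2 fold change -0.35, SE 0.12, limma adjusted p = 0.0412), Cmpk2, a nucleotide kinase gene beside Rsad2 (log2 fold change -0.51, SE 0.14, limma adjusted p = 0.0138), and Cd274, which encodes PD-L1 (log2 fold change -0.48, SE 0.17, limma adjusted p = 0.0438). Against NCAC, 3 of the 56 rose at 4 weeks (Ifnar2, Tmem173 and Ifitm1), 5.36% against 5.11% of all genes. At 6 weeks 16 rose (28.6%, against 27.8% of all genes) and 2 fell (3.57%, against 4.86%). At 8 weeks 9 rose (16.1%, against 19.3% of all genes). The shares that rose were again near those of all genes. Against Con at 8 weeks Ifitm1 rose (log2 fold change 1.64, SE 0.31, limma adjusted p = 0.00435) and Ifngr2 fell (log2 fold change -0.60, SE 0.14, limma adjusted p = 0.013), 1 of 56 each way, where 6.31% of all genes rose and 4.26% fell.

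The members were also compared in mock-injected muscle over time. Irf8, Ifi44 and Ubd, which passed the filter only through week 8 and so had to be high there, are left out unless all 35 members are named. Of the other 32 members 26 rose and 0 fell in Con at 8 against 6 weeks. Of the 12614 genes that passed without week 8, 52% rose and 10.3% fell, and of all genes tested 54.1% rose and 9.65% fell, 63.7% in all. The median log2 fold change was 1.17 over the 32 members and 0.27 over the genes that passed without week 8. The 26 were 6 of 6 regulators, 5 of 5 MHC class I genes, 12 of 14 antiviral effectors and 3 of 7 GTPases. Over all 35 members, with Irf8 and Ubd among them, limma called 28 higher. Rescaling shifted the median of all genes by 0.316. Relative to it 25 of the 35 members rose and Rsad2 fell, among 4299 genes that rose and 4301 that fell. The counts over all 35 members and all genes tested take in genes that passed only through week 8, so they are a description. Time, age and anything else that differed between the collections cannot be told apart.

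The class I heavy chain genes H2-D1 and H2-K1 had the largest log2 fold changes of the 35. H2-D1 read 579, 384, 319, 269.9 and 503 TPM at 8 weeks, against 104, 87.5, 66.2, 26.1 and 93.5 TPM at 6 weeks (log2 fold change 2.52, SE 0.35, limma adjusted p = 0.000104). B2m read 1465, 953, 851, 693 and 901 TPM at 8 weeks, against 310.0, 279.9, 224, 233 and 269.7 TPM at 6 weeks (log2 fold change 1.85, SE 0.18, limma adjusted p = 9.75e-06). The weeks did not overlap in any of the 5 class I genes, and Tap2 rose by 0.90 (SE 0.12, limma adjusted p = 8.29e-05). Among the antiviral effectors Ifitm3 rose by 1.90 (SE 0.17, limma adjusted p = 5.61e-06) and Ifitm2 by 1.62 (SE 0.14, limma adjusted p = 6e-06). Rsad2 averaged 1.26 ± 0.58 TPM at 8 weeks and 1.73 ± 0.593 TPM at 6 weeks, and Gbp4 averaged 5.63 ± 3.74 TPM at 8 weeks and 6.1 ± 3.66 TPM at 6 weeks (SD, n = 5 each), with overlap in both. Over the same step 11 of 11 macrophage, 6 of 6 fibro-adipogenic progenitor and 5 of 5 adipocyte markers that passed without week 8 rose (median log2 fold changes 3.14, 2.63 and 3.26), and 2 of 5 muscle fibre markers fell. Of the other lists 3 of 3 neutrophil (median 2.04) and 4 of 8 endothelial markers rose, and 3 of 6 slow fibre markers fell. Among all genes that passed without week 8, 52% rose and 10.3% fell. The part of these cells in the members' rise was not tested.

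Con replicate 1 of week 8 bore on the GTPases in that comparison. It was picked for its high GTPases, so values without it are a description. With it the log2 fold change was 1.31 for Igtp (SE 0.54, limma adjusted p = 0.0533) and 0.59 for Irgm1 (SE 0.30, limma adjusted p = 0.101). Without it the values were smaller, 0.71 and 0.25, and so were their SEs, 0.22 and 0.08. Both genes were then past the threshold, which is a description and not a test. Ifi35, an interferon-induced leucine zipper protein, did not pass without it (0.85, limma adjusted p = 0.0757), nor without Con replicate 2 or 3 of week 8 (0.94 and 0.91, limma adjusted p = 0.067 and 0.073) or Con replicate 1 or 5 of week 6 (0.74 and 0.84, limma adjusted p = 0.0783 and 0.0809). Gbp7 did not pass without Con replicate 3 or 4 of week 6 (0.71 and 0.76, limma adjusted p = 0.0638 and 0.0565).

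Within week 8, CAC replicate 3 and Con replicate 1 stood apart in the GTPases, which are known as targets of interferon gamma. Iigp1 read 146 TPM in the CAC library and 138 TPM in the Con library, against 6.67 to 19.8 TPM in the other 15 libraries of that week. Igtp read 109 and 101 TPM, against 6.15 to 16 TPM. Irgm1 read 33.3 and 33.3 TPM, against 5.72 to 10.5 TPM. Both libraries were above the other 15 in 7 of 7 GTPases, 4 of 7 regulators, 2 of 5 MHC class I genes and 5 of 16 antiviral effectors, 18 of 35 members in all, where 2.62% of the genes tested were so placed. Igtp was used to pick these libraries, so the counts are a description.

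Ifitm2 and Ifitm3 were not high in these libraries. Ifitm2 read 421 TPM in CAC replicate 3 and 393 TPM in Con replicate 1, against 236 to 1129 TPM in the other 15. Ifitm3 read 313 and 374 TPM, against 170.3 to 788 TPM. Of the wider list 17 of 64 genes were above the rest in both. Ifng read 0.0869 TPM in CAC replicate 3 and 0.721 TPM in Con replicate 1, against 0 to 0.122 TPM, so only the Con library stood out. Among the 17, Cxcl9, a chemokine that draws T cells and was named after its values were seen, read 18.2 and 31 TPM, against 0.0359 to 2.02 TPM. Of 10 T and NK lymphocyte markers 9 were above the rest in both, with sums of 11.7 and 18.3 TPM, against 0.472 to 4.31 TPM. These 9 did not pass the filter, so the 2.62% over genes tested is no share to set beside them. Some lay near the floor, as Klrb1c with 0.213 and 0.0979 TPM, against at most 0.0896 TPM. Gzma, the 1 marker that passed, was not above the rest in both. Cd3g, a chain of the T cell receptor complex, read 1.52 and 3.7 TPM, against 0 to 0.412 TPM. Of 12 macrophage markers 0 were above the rest in both, with sums of 1048 and 2012 TPM, against 416 to 3143 TPM. The part of lymphocytes in the GTPase levels was not tested.

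**Figure D4:**
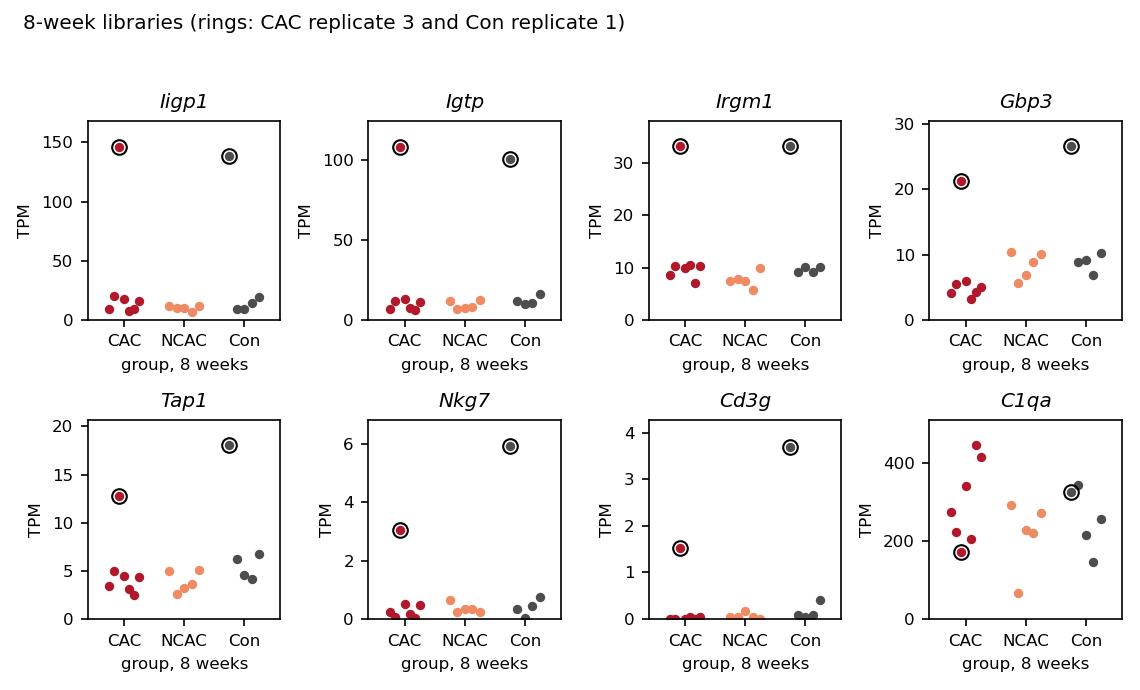
TPM of 5 members and 3 cell type markers in the 17 libraries of week 8, with CAC left of NCAC and Con and rings around CAC replicate 3 and Con replicate 1. The ringed libraries lie above the rest for Iigp1, Igtp, Irgm1, Gbp3, Tap1, Nkg7 and Cd3g, and inside the range of the rest for C1qa, a macrophage marker.

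In CAC against Con at 8 weeks limma called 0 members with all libraries, and 5 were under 0.05 before adjustment. Of all genes 10.6% were called (6.31% higher and 4.26% lower). The count of members depended on the fit, as 1 fit of all 12 groups called 8. Gbp3 had a lowest, median and highest of 3.25, 5.03 and 21.3 TPM in CAC, against 26.6, 8.9, 9.23, 6.94 and 10.3 TPM in Con. CAC replicate 3 was the CAC library inside the Con range, and the other CAC libraries lay below each Con library. Gbp3 had a log2 fold change of -0.82 with all libraries (SE 0.36, limma adjusted p = 0.148) and -0.81 without both. That of Irf1, a transcription factor of the interferon gamma response, was -0.55 with all libraries (SE 0.21, limma adjusted p = 0.0985) and -0.49 without both. CAC replicate 3 was picked for the same genes that are high in it, so the values without it, and the 5 members past the threshold without it alone (Ifitm2 higher; Gbp3, Irf1, Ubd and Ifit3 lower), are a description and not a test. Ifitm2 had a lowest, median and highest of 421, 755 and 1129 TPM in CAC, against 393, 609.9, 439, 344 and 533 TPM in Con, and missed the threshold with all libraries (log2 fold change 0.74, SE 0.26, limma adjusted p = 0.0744) and had a log2 fold change of 0.83 without both. With all libraries 2 of 3 tested dendritic cell markers fell (median log2 fold change -0.76), with sums of 2.56 to 5.71 TPM in CAC, against 6.6 to 10.2 TPM in Con. Gzma, the tested T and NK lymphocyte marker, fell (log2 fold change -0.77, SE 0.23, limma adjusted p = 0.0443), as did 2 of 6 slow fibre markers, and 1 of 3 tested neutrophil markers rose. Without week 8, 0 of 10 T and NK lymphocyte and 1 of 6 dendritic cell markers passed the filter. The falls in these 2 lists therefore draw on genes kept for their 8-week values and are a description. Of endothelial and of muscle fibre markers 1 rose and 1 fell in each list. The part of these cells in the values was not tested.

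In CAC against NCAC at 8 weeks Ifitm2 rose and no other member passed, where 19.3% of all genes rose and 2.68% fell, 21.9% in all. With 1 fit of all 12 groups 5 members passed. Ifitm2 read 530.0, 236, 304, 499 and 574 TPM in NCAC and overlapped with CAC (log2 fold change 0.91, SE 0.26, limma adjusted p = 0.0204). The call was lost without NCAC replicate 2 (0.71, limma adjusted p = 0.0542) or 3 (0.80, limma adjusted p = 0.0536) and under rescaling (0.71, limma adjusted p = 0.0601), which moved the all-gene median by 0.165, with 721 genes that rose and 762 that fell. Without NCAC replicate 5, 4 members rose (Ifitm2, Ifitm3, Stat2 and Irf9). Stat2 rose beside Ifitm2 without CAC replicate 1 or 6, and Ifitm3 rose beside Ifitm2 without CAC replicate 3. Gbp3 had a log2 fold change of -0.43 with all libraries (SE 0.36, limma adjusted p = 0.415) and -0.72 without both libraries of high Igtp. That of Rsad2 was -0.04 with all libraries (SE 0.32, limma adjusted p = 0.949) and -0.35 without both. Of these libraries CAC replicate 3 is the one in this contrast, at 21.3 TPM of Gbp3 and 7.11 TPM of Rsad2, so values without it are again a description.

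NCAC replicate 2, without which the Ifitm2 call against NCAC was lost, stood apart. Its macrophage markers summed to 416 TPM, the lowest of week 8, against 1642, 1272, 1048, 2128, 1009.9, 2759.7 and 2276 TPM in CAC. NCAC replicate 3, without which the call was also lost, had the highest macrophage sum of week 8, at 3143 TPM. In other lists NCAC replicates 2 and 3 lay together. Their fibro-adipogenic progenitor markers summed to 1523 and 2078 TPM, against 5654, 4280 and 4360 TPM in NCAC replicates 1, 4 and 5. The muscle fibre sums were 48017 and 43526 TPM in replicates 2 and 3, against 19778, 23985 and 35940 TPM. Ifitm2 was lower in NCAC replicates 2 and 3 than in the other NCAC libraries. In CAC against NCAC at 8 weeks 4 of 8 endothelial markers rose (median log2 fold change 0.36), with sums of 171 to 295 TPM in CAC, against 175 to 224 TPM in NCAC. Of muscle fibre markers 2 of 5 rose and 1 fell, and 1 of 12 macrophage and 1 of 3 tested neutrophil markers rose. Among all genes 19.3% rose and 2.68% fell in this comparison. Gzma fell (log2 fold change -0.88, SE 0.23, limma adjusted p = 0.015), as did 1 of 3 tested dendritic cell and 1 of 6 slow fibre markers. Gzma passed the filter only through week 8, and 1 dendritic cell marker passed without it, so these falls are again a description. The part of all these cells in the Ifitm2 difference was not tested.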

How the data were processed

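Polyadenylated RNA of soleus in 62 libraries was sequenced with a stranded kit on an Illumina instrument, per the labels' protocols. The authors deposited 1 table of TPM values. The submitters' processing notes name the build mm10. Which aligner and quantifier made it is not given in the sources used here. No depth survives in TPM, so no counting interval is given.

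From the table, log2(TPM + 1) of the 13529 genes with at least 1 TPM in at least 5 libraries was tested with limma 3.58.1 (R 4.3.3, intensity trend), each week fitted on its own 3 groups and each contrast between weeks on the groups involved. Benjamini-Hochberg adjustment ran over all genes of a comparison, with a threshold of 0.05. Weeks were fitted apart because their spread differs. The fits were tested on simulated data. Named in full were, per role, the 3 members with the smallest adjusted p in CAC against Con at 6 weeks, and each member that fell in a comparison with CAC. Rescaling, filters, pseudocounts, a replicate block, sample weights and left-out libraries were the alternatives. Leaving out libraries of high Myh4 or Igtp, the sample weights and the counts in Con at 8 against 6 weeks over genes that pass the filter without week 8 were chosen after seeing the data. The members and lists were chosen with earlier results of these data known. P-values set a difference of means against the spread between libraries within groups, pooled over the groups of a fit and drawn by limma toward its intensity trend.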

Additional observations from a re-analysis of the deposited data

Results flagged for a closer look

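For the 13 members given in full, 156 groups of 5 or 7 libraries were checked for a highest or lowest library that stood alone. Its gap to its nearest neighbour, as a share of the range of the group, had to exceed Dixon's 95% critical value. That value marks about 1 group in 20 where values are independent and normal, and 16 were marked. TPM values need not be normal and the members share libraries, so the 16 cannot be set against that rate. Of these 8 were in week 8, and all 8 were CAC replicate 3 or Con replicate 1. CAC replicate 3 of week 8 was highest in Rsad2 (7.11 TPM), Gbp3 (21.3 TPM), Irgm1 (33.3 TPM) and Ifit3 (31.6 TPM). Con replicate 1 of week 8 was highest in Irf8 (5.33 TPM), Gbp3 (26.6 TPM), Gbp4 (12.2 TPM) and Irgm1 (33.3 TPM).

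The other 8 were spread over 5 groups. Con replicate 1 of week 6 was highest in Gbp4 (12.5 TPM) and Irgm1 (9.12 TPM), and Con replicate 4 of week 6 in Ifitm2 (168 TPM). NCAC replicate 1 of week 6 was highest in Rsad2 (1.45 TPM), CAC replicate 3 of week 2 in H2-D1 (89.5 TPM) and NCAC replicate 4 of week 2 in Ifit3 (11.9 TPM). Con replicate 5 of week 4 was lowest in Irf9 (2.53 TPM), and NCAC replicate 2 of week 2 was lowest in B2m (239 TPM).

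The effect of CAC against Con differed between weeks 6 and 2 for Ifitm2, by 1.35, and for Ifitm3, by 0.72 on the log2 scale, both called by limma on the difference itself. The Ifitm3 call was lost in 1 fit of all 12 groups (limma adjusted p = 0.38).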

How the results depend on the processing

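No member past the threshold changed direction under the alternatives run. Counts of members past the threshold moved by over 1.5 times as follows. Without the filter on low values, CAC against Con at 4 weeks gave 1 and CAC against NCAC at 4 weeks gave 2. With 1 fit of all 12 groups, CAC against Con gave 5 at 6 weeks and 8 at 8 weeks, CAC against NCAC gave 2, 3 and 5 at 4, 6 and 8 weeks, NCAC against Con gave 1 at 8 weeks, and the change of the CAC effect from 2 to 6 weeks gave 1, Ifitm3 being lost (limma adjusted p = 0.38). In that fit Gbp3 and Ifit3 were also lost in CAC against Con at 6 weeks (limma adjusted p = 0.0638 and 0.0856). Rescaling gave 11 at 6 weeks and 0 at 8 weeks in CAC against NCAC. Sample weights gave 1 in CAC against Con at 8 weeks and 2 in CAC against NCAC at 4 weeks. Without the libraries of high Myh4, CAC against NCAC at 8 weeks gave 2. Without both libraries of high Igtp, CAC against Con gave 2 and CAC against NCAC gave 3 at 8 weeks. The cause was not tested.

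Leaving out 1 library at a time gave 1 to 4 members at 4 weeks, 6 to 10 at 6 weeks and 0 to 5 at 8 weeks in CAC against Con. In CAC against NCAC it gave 0 to 5, 1 to 6, 4 to 7 and 0 to 4 at 2, 4, 6 and 8 weeks, and in Con at 8 against 6 weeks 27 to 30 of all 35, Irf8, Ifi44 and Ubd included.

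The replicate numbers did not pair the libraries. Deviations of libraries with the same number correlated at over 0.1 in 15 of 60 pairs, from -0.67 to 0.48. The fit with the replicate number as a block gave 6 members in CAC against Con at 6 weeks, 2, 7 and 0 in CAC against NCAC at 4, 6 and 8 weeks, and 29 in Con at 8 against 6 weeks. The block also ended the calls of Irf9 and Gbp4 in CAC against Con at 6 weeks (limma adjusted p = 0.066 and 0.0758). Depth is unknown, so low genes such as Rsad2, Irf8 and Ubd carry an unknown counting error.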
